A study of Drosophila melanogaster with 3 samples.

Results

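Chromator, the product of Chro, is a chromodomain protein of the open bands between the condensed bands of fly polytene chromosomes, and the genes described here encode Chromator, its partners and the fly's insulator or architectural proteins. They are 10 genes of the 13968 protein-coding genes in the annotation (18277 genes of all kinds): Chro, pzg, JIL-1, BEAF-32, Cp190, CTCF, su(Hw), mod(mdg4), dwg and pita. They were chosen by the peak scores of these samples, Chro because of its rank, so their values are a description and carry no test. A peak belonged to a gene when its summit, the position of highest signal, lay in the gene body or within 2000 bp of any of its transcription start sites (TSSs).

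The data are a ChIP-seq experiment, in which DNA bound to a protein is recovered with an antibody and sequenced. Whole embryos of mixed sex, aged 0 to 24 h, came from 1 transgenic Drosophila melanogaster line that carries the zinc-finger protein CG10274 with GFP fused to its C-terminus, and the antibody was raised against GFP, per the labels. There were 3 biological replicates of this 1 group and no other genotype or treatment. The embryos were not dissected or staged further, so a peak is a mixture over tissues and stages.

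Chromator forms a complex with the zinc-finger protein Z4, the product of pzg, and works with JIL-1, the kinase that phosphorylates serine 10 of histone H3 in active chromatin. BEAF-32, CTCF, su(Hw), pita and dwg (Zw5) are proteins that bind specific DNA sequences at insulators, the elements that separate neighbouring regulatory domains. Cp190 and mod(mdg4) are BTB-domain cofactors that these DNA-binding proteins bring to such sites, and transcripts of mod(mdg4) are completed by trans-splicing to alternative 3′ exons encoded elsewhere in the locus.

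For every replicate, the authors ranked 30000 entries, peaks and background together. A pooled list of 30000 entries was called on all replicates, and the 2988 entries that passed the authors' test of agreement between replicates (the irreproducible discovery rate) form the combined list. The peak score is the authors' own. For comparison across replicates it is given as a relative score, the score of the best overlapping entry in a replicate divided by the median of 2292 shared peaks (combined peaks listed in all 3 replicates) in the same replicate. Read counts are not part of the lists, and sequencing depth is unknown. The last combined peak had a pooled score of 128.156, and the next pooled entry, outside the combined list, scored 128.149. Coordinates are on dm6. CG10274 itself had a combined peak of rank 1338 with its summit at -235 from its TSS, at relative scores of 0.783 and 1.31 in replicates 1 and 2, and no entry in replicate 3.

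Of the 10 genes, 6 had a combined peak and together held 8 such peaks, against 19.5% of all protein-coding genes with a combined peak by the same rule. The 6 were Chro, Cp190, mod(mdg4), JIL-1, pzg and BEAF-32. CTCF, su(Hw), pita and dwg had none. Gene length bears on this count, since the rule includes the gene body: JIL-1 (14442 bp) and mod(mdg4) (26556 bp) each had 2 combined peaks, and 42.3% of protein-coding genes of at least 10000 bp had a combined peak. A summit within 500 bp of a TSS of the gene was found for 4 of the 10 genes (Chro, Cp190, pzg and BEAF-32), against 11.1% of protein-coding genes. A combined peak overlapped by the top 2988 peaks of every replicate was found for 4 of the 10 (Chro, Cp190, mod(mdg4) and JIL-1), against 10.3%.

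The DNA under these peaks is shown first, from the release 6 reference genome held by RefSeq, since 4 of the 8 peaks lie at short spacers between genes transcribed away from each other. Each stretch is written 5′ to 3′ on the strand of the gene, so that a spacer reads towards the start of the gene named first. Capitals mark the known promoter and insulator words described further on. The words that led at other combined summits, also described there, are not marked. The summit of the strongest peak and the spacer next to it are on the minus strand of arm 3L, the summit stretch at chr3L:22878881-22878910 within the 5′ UTR of Chro and the spacer to Ssl1 at chr3L:22878985-22879088.
Chro summit: agttagtttaaagcTATCGacaggcaatac
Chro to Ssl1 spacer: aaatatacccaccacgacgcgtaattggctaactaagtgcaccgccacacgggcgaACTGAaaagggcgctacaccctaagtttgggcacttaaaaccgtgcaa

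The spacers at the Cp190, mod(mdg4) and pzg peaks follow. That of Cp190 lies at chr3R:15275242-15275521 on the minus strand. That inside mod(mdg4), between the starts of 2 of its trans-splicing partner genes, lies at chr3R:21365489-21365608 on the minus strand, and that of pzg at chr3L:21285963-21286098 on the plus strand.
Cp190 to CG4338 spacer: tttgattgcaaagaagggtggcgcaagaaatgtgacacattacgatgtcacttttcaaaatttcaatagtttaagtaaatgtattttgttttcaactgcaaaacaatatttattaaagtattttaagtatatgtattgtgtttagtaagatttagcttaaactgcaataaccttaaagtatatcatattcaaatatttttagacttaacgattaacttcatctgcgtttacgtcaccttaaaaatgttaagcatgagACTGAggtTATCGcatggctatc
pre-mod(mdg4)-E to pre-mod(mdg4)-Y spacer: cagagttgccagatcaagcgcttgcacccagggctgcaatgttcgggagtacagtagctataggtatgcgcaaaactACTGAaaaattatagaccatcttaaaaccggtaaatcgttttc
pzg to CG12974 spacer: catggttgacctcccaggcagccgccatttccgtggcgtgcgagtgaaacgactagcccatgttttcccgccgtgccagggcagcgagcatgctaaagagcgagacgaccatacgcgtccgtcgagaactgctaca

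The remaining windows are 101 bp centred on summits away from the genes' starts, all on the minus strand. Those of JIL-1 are intronic, at chr3L:11090163-11090263 and chr3L:11084739-11084839, and the second mod(mdg4) peak lies upstream of the gene at chr3R:21378657-21378757.
JIL-1 intron, rank 764: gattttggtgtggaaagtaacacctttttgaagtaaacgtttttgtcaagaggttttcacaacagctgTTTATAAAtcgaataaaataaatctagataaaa
JIL-1 intron, rank 824: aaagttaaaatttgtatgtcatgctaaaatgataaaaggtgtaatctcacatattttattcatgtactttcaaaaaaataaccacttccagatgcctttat
mod(mdg4) upstream, rank 1551: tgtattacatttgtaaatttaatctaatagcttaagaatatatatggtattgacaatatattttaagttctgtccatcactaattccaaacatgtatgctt

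The Chro peak was the highest-scoring entry of the combined list and of each replicate list. Chro (FBgn0044324) covers 22873702 to 22878984 on arm 3L, minus strand. Its peak covered 22878375 to 22879486, with the summit at 22878895, in the 5′ UTR and 89 bp downstream of the TSS. The scores were 11952 in replicate 1, 5759 in replicate 2 and 5507 in replicate 3, and the next entries of those lists scored 6305, 2635 and 2679, so that Chro stood 1.90, 2.19 and 2.06 times above the second peak. In the combined list it scored 22892, 2.14 times the second peak. Relative scores were 106, 76.9 and 97.9 in replicates 1, 2 and 3 (mean 93.7 ± 15.1, SD, n = 3). All 3 replicates thus placed Chro far above their median shared peak, with replicate 2 lowest.

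Replicate summits at Chro fell close together, at 81, 102 and 80 bp downstream of the TSS in replicates 1, 2 and 3. The peak was also broad. The combined interval of 1112 bp was the 10th widest of the list, and the overlapping entries spanned 1605, 739 and 609 bp in the 3 replicates, whereas 1790 of the 2988 combined peaks had the same width of 404 bp. The interval reached across the start of Ssl1, which encodes a subunit of the general transcription factor TFIIH and is transcribed in the opposite direction. The spacer between the Chro and Ssl1 starts has 104 bases, and the summit lay at position -194 relative to the Ssl1 start, so that it was nearer to the Chro start. Within the rest of the Chro gene, the pooled list held only 3 low entries (ranks 15466, 19618 and 28764), none of them listed in replicates 2 or 3.

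Z4 and JIL-1, the partners of Chromator, had much weaker peaks. The pzg peak (FBgn0259785, 21286099 to 21290310 on arm 3L, plus strand) ranked 1788 and had its summit at position -101, in the 136-base spacer between pzg and the oppositely transcribed CG12974, and nearer to the CG12974 start, at -36. Its relative scores were 0.551, 0.912 and 1.21 in replicates 1, 2 and 3 (mean 0.890 ± 0.328, SD, n = 3). Replicate 1 was the low one: it ranked the entry 3729, outside its top 2988, against 1442 and 815 in replicates 2 and 3. Its summit there stood at 53 bp downstream of the start, while those of replicates 2 and 3 stood at -100 and -128.

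JIL-1 (FBgn0020412, 11078752 to 11093193 on arm 3L, minus strand) had both of its combined peaks in introns. The first, of rank 764, lay 1643 bp downstream of the nearest TSS and had relative scores of 1.58, 1.34 and 1.64 in replicates 1, 2 and 3 (mean 1.52 ± 0.157, SD, n = 3). The second, of rank 824, lay 7067 bp downstream, was only 107 bp wide and had 1.32, 1.36 and 1.07 (mean 1.25 ± 0.157, SD, n = 3). Every replicate had both peaks among its top 2988, and the second was the higher of the pair in replicate 2, so their order is within the spread. In replicate 1 the entry behind the first value had its summit at 1775 bp, and the one nearest to the combined summit, at 1556 bp, had a relative score of 1.14. At the JIL-1 start itself there was a pooled entry of rank 4271 at position -23, below the combined threshold, which all 3 replicates listed at relative scores of 0.220, 0.384 and 0.392 (mean 0.332 ± 0.0971, SD, n = 3). The intronic signal was therefore above that at the JIL-1 start in every replicate.

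The cofactor gene Cp190 had the second-highest peak of the 10 genes. Cp190 (FBgn0000283, 15270432 to 15275241 on arm 3R, minus strand) carried a peak of rank 319 with its summit at -152, in the 280-base spacer between Cp190 and CG4338 and slightly nearer to the CG4338 start, at -129. Relative scores were 2.37, 2.43 and 2.64 in replicates 1, 2 and 3 (mean 2.48 ± 0.143, SD, n = 3), and the ranks were 369, 305 and 258. These are close to each other, while the summits were less so, at -165, -108 and -218. Apart from this peak, the membership rule found 1 pooled entry for Cp190, of rank 29296, outside the gene at -1782.

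The mod(mdg4) gene (FBgn0002781, 21350846 to 21377401 on arm 3R, minus strand) had its stronger peak far inside the locus. This peak, of rank 493, lay 11904 bp downstream of the annotated mod(mdg4) TSS but at position -9 from the start of pre-mod(mdg4)-E, a separately annotated precursor that supplies 3′ exons for trans-splicing, and at -112 from the oppositely directed start shared by pre-mod(mdg4)-Y, -X, -AD, -AE, -W, -V and -U. Relative scores were 1.92, 1.57 and 2.03 in replicates 1, 2 and 3 (mean 1.84 ± 0.240, SD, n = 3). The 3 replicate summits fell at -8, 5 and 26 bp from the pre-mod(mdg4)-E start, and the spacer between the pre-mod(mdg4)-E and -Y starts has 120 bases. The peak assigned to mod(mdg4) by the rule was thus at precursor starts within an intron, and no combined peak stood within 500 bp of its own TSS.

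A second combined peak counted for mod(mdg4), of rank 1551, lay at position -1306 from its TSS and at -270 from the start of tin, the homeobox gene of heart precursors, which is transcribed away from mod(mdg4). It had relative scores of 1.07 and 0.801 in replicates 1 and 2, and replicate 3 listed no overlapping entry. It was the only 1 of the 8 peaks absent from a replicate list. Of all 2988 combined peaks, 2292 were listed in all 3 replicates, so such an absence was common. The peak lay nearer to tin than to mod(mdg4). Pooled entries below the threshold added to the picture of mod(mdg4): 1 of rank 3099 lay at -44 from the shared start of pre-mod(mdg4)-AA, -O and -N, and 1 of rank 6218 lay 119 bp downstream of the mod(mdg4) TSS. Replicate 1 alone listed the entry at the mod(mdg4) TSS, at a relative score of 0.706. The entry at pre-mod(mdg4)-AA had 0.494 and 0.281 in replicates 1 and 2 and was not listed in replicate 3.

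Among the genes of DNA-binding insulator proteins, BEAF-32 was the only 1 of 5 with a combined peak. That count is near the 19.5% of all protein-coding genes with a combined peak by the same rule. BEAF-32 (FBgn0015602, 14770469 to 14772630 on arm 2R, plus strand) had a peak of rank 2673 with its summit at -57, and at -142 from the start of asRNA:CR42254, a noncoding gene transcribed the other way with 198 bases between the starts. Relative scores were 0.583, 0.648 and 0.587 in replicates 1, 2 and 3 (mean 0.606 ± 0.0362, SD, n = 3). These lie close together and below the median shared peak, and the peak ranked 3352 in replicate 1, outside its top 2988, against 2363 and 2503 in replicates 2 and 3. In replicates 1 and 3 the best overlapping entry had its summit farther upstream, at -361 and -321, next to a separate pooled entry of rank 4139 at -328. The entries whose summits were nearest to the combined one had relative scores of 0.508, 0.648 and 0.547 in replicates 1, 2 and 3 (mean 0.568 ± 0.0720, SD, n = 3). A further pooled entry, of rank 3325, lay 19 bp downstream of another annotated BEAF-32 start, at relative scores of 0.480 and 0.472 in replicates 1 and 2.

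The other 4 insulator genes fell below the combined threshold by different distances. CTCF (FBgn0035769, 7353578 to 7356713 on arm 3L, minus strand) came nearest, with 1 pooled entry of rank 3341 and score 118, 215 bp downstream of its TSS in an intron. Its relative scores were 0.444 and 0.420 in replicates 1 and 2, and replicate 3 did not list it. The nearest combined peak outside the rule lay at position -3300 from the CTCF TSS, at the gene pst. For su(Hw) (FBgn0003567, 14304455 to 14308589 on arm 3R, minus strand) the pooled entry ranked 4874 at position -247 and at -253 from the start of Polr2I, the gene of an RNA polymerase II subunit transcribed the other way. Its relative scores were 0.479 and 0.258 in replicates 1 and 2, with no entry in replicate 3.

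The pita gene (FBgn0034878, 23548967 to 23554712 on arm 2R, minus strand) had 3 pooled entries, of ranks 14295, 16196 and 17376, each listed in replicate 1 alone. Replicate 1 listed 11 entries at pita, the best at rank 3477, and replicates 2 and 3 listed none. The dwg gene (FBgn0000520, 2727698 to 2730042 on the X chromosome, plus strand) had no pooled entry. A single entry of rank 29282 in replicate 2, in the coding sequence, was all that any list held there. The nearest combined peak to dwg lay 15631 bp away, at Syx4, so no peak at dwg was detectable in these lists.

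**Figure D1:**
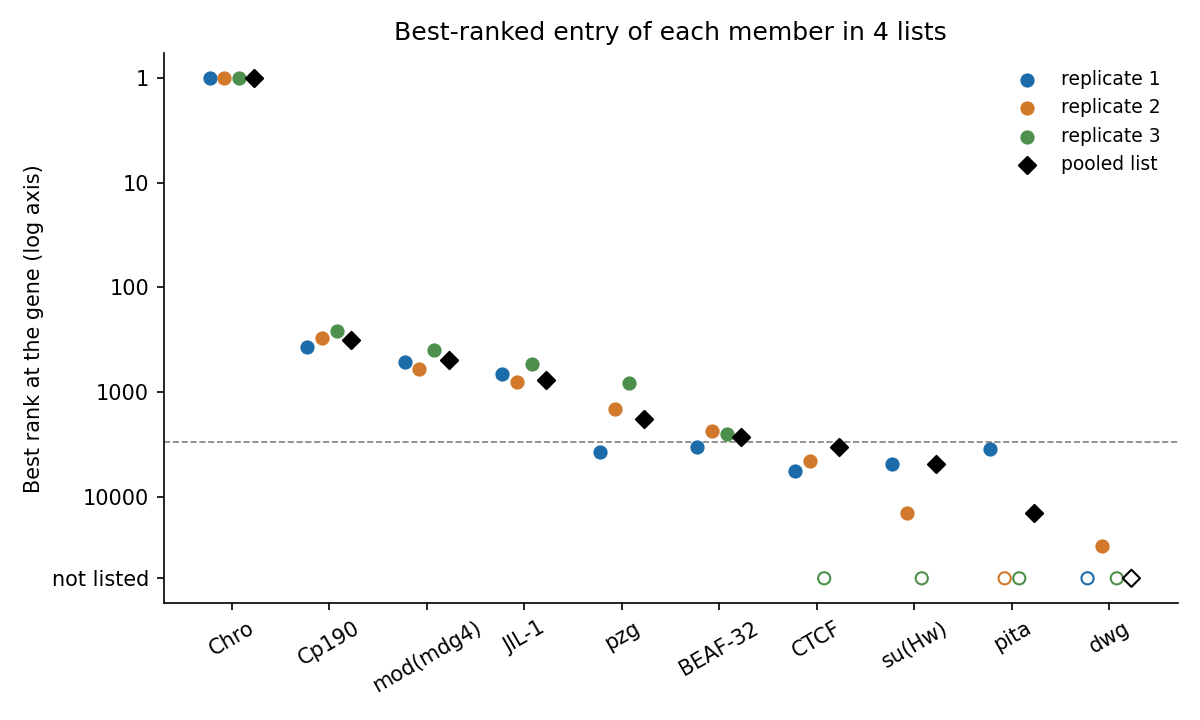
Best rank of each gene's entries by the membership rule in replicates 1, 2 and 3 (circles) and in the pooled list (diamonds), on an inverted log axis, with open symbols for genes not listed and a dashed line at rank 2988. Chro is at rank 1 in all 4 lists, Cp190, mod(mdg4) and JIL-1 lie above the line in all 4, and CTCF, su(Hw), pita and dwg lie below it or are not listed.

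Listing differed between replicates in a way that touched these genes. Replicate 1 listed 56 entries at the 10 genes, replicate 2 listed 23 and replicate 3 listed 9, although each list had 30000 entries. Of all entries in those lists, 30.8%, 18.5% and 11.5% had their summit within 500 bp of a protein-coding TSS in replicates 1, 2 and 3. An entry of any rank was found at 9 of the 10 genes in replicate 1, against 65.2% of protein-coding genes, at 9 in replicate 2, against 71.4%, and at 6 in replicate 3, against 55.5%. The pooled list had an entry at 9 of the 10 genes, against 69.0% of protein-coding genes, so that an entry at a low rank was common. The top 2988 peaks gave 4 genes in replicate 1, against 19.3%, 6 in replicate 2, against 18.9%, and 6 in replicate 3, against 16.8%. The genes outside the replicate 1 top list were pzg and BEAF-32, besides the 4 with no combined peak. Absence from replicate 3 accordingly came with a list that held fewer entries near starts. What part this has in the missing entries was not tested.

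The order of the 6 genes by the relative score of their best peak was Chro, Cp190, mod(mdg4), JIL-1, pzg and BEAF-32. Chro stood 37.7 times above Cp190 in mean relative score and was higher in 3 of 3 replicates, as its first rank in every replicate list required. Cp190 stood 1.35 times above mod(mdg4), also in 3 of 3 replicates, and the ranges of mean ± SD did not touch. Between mod(mdg4) and JIL-1 the ratio was 1.21, with overlapping ranges but the same order in 3 of 3 replicates. Between pzg and BEAF-32 it was 1.47, with overlapping ranges and that order in 2 of 3 replicates. JIL-1 stood 1.71 times above pzg in 3 of 3 replicates with separate ranges, which touched once the JIL-1 entries nearest to the combined summit were used instead (mean 1.37 ± 0.250, SD, n = 3). Scaled by the median of a replicate's own top 2988 peaks, the ranges overlapped between Cp190 and mod(mdg4) and between JIL-1 and pzg. The scores thus form 1 extreme value and 5 moderate ones.

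**Figure D2:**
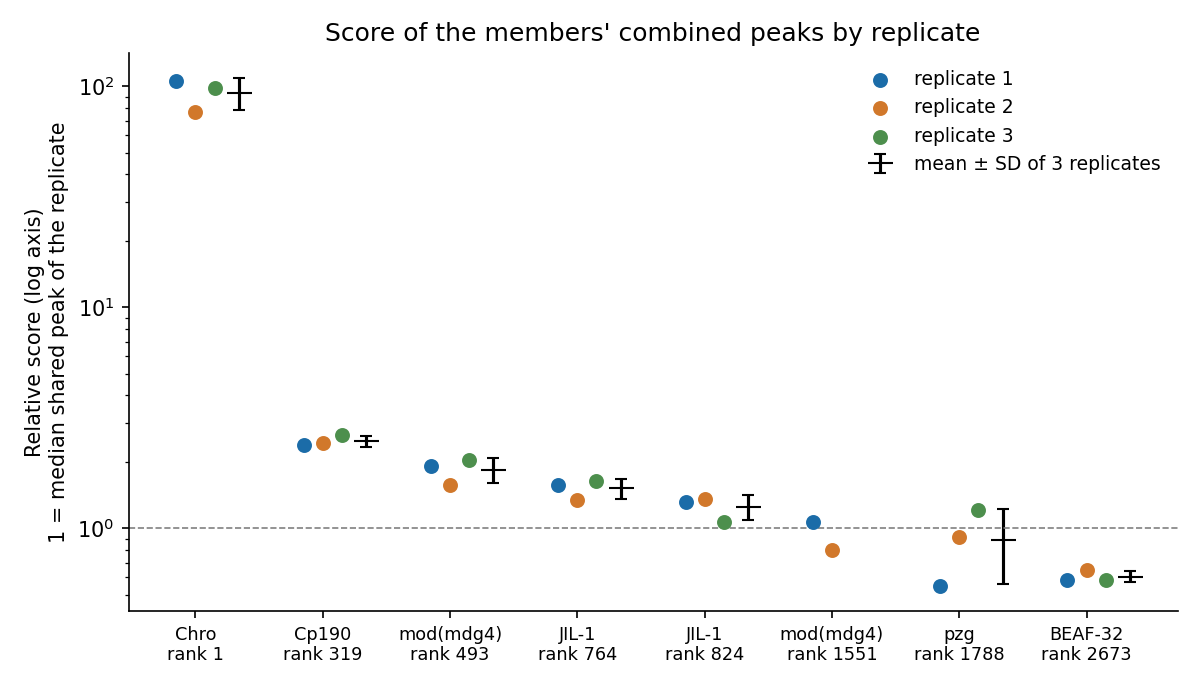
Relative score of the 8 combined peaks on a log axis, with points for replicates 1, 2 and 3, bars for mean ± SD of the 3 replicates, and a dashed line at 1, the median shared peak of a replicate. Chro lies at 93.7 ± 15.1, Cp190 at 2.48 ± 0.143, and BEAF-32 at 0.606 ± 0.0362, while the mod(mdg4) peak of rank 1551 has 2 points because replicate 3 did not list it.

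**Figure D3:**
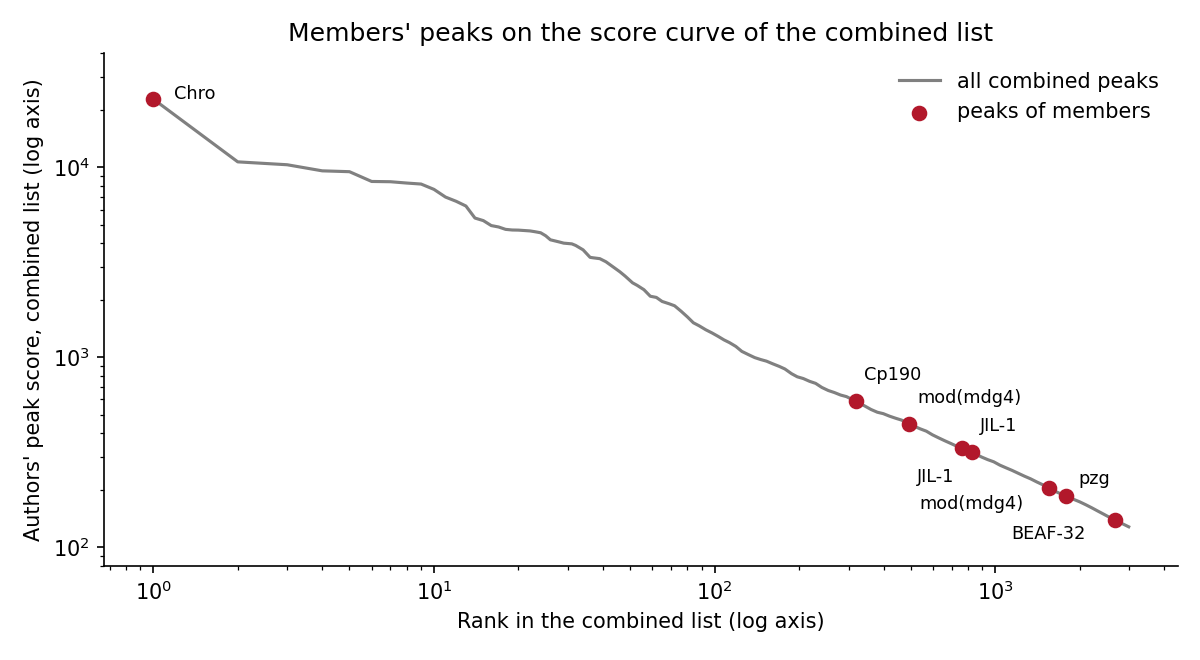
Authors' peak score against rank for the combined list, both on log axes, with the 8 peaks of the genes as red points on the grey curve of all 2988 combined peaks. Chro stands at the start of the curve at 22892, against 10691 for the second peak, and the others lie from rank 319 to rank 2673.

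Starts transcribed away from each other were a shared feature of the peaks that the rule did not use. A pair of head-to-head protein-coding starts, both within 500 bp of the summit and at most 1000 bp apart, flanked 4 of the 6 peaks that had a protein-coding TSS within 500 bp, against 27.5% of all combined peaks of that kind. These were the Chro and Ssl1, Cp190 and CG4338, pzg and CG12974, and pre-mod(mdg4)-E and -Y starts, of which 3 involve the gene's own TSS. The other 2 of the 6 were the BEAF-32 peak, whose opposite start is noncoding, and the mod(mdg4) peak near tin. With 6 peaks, these counts describe the genes at hand and were not tested. Where the summit sat between the starts differed. It was within the spacer for Cp190 and pzg, at its edge for pre-mod(mdg4)-E, and past the start, inside the transcribed 5′ UTR, for Chro.

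**Figure D4:**
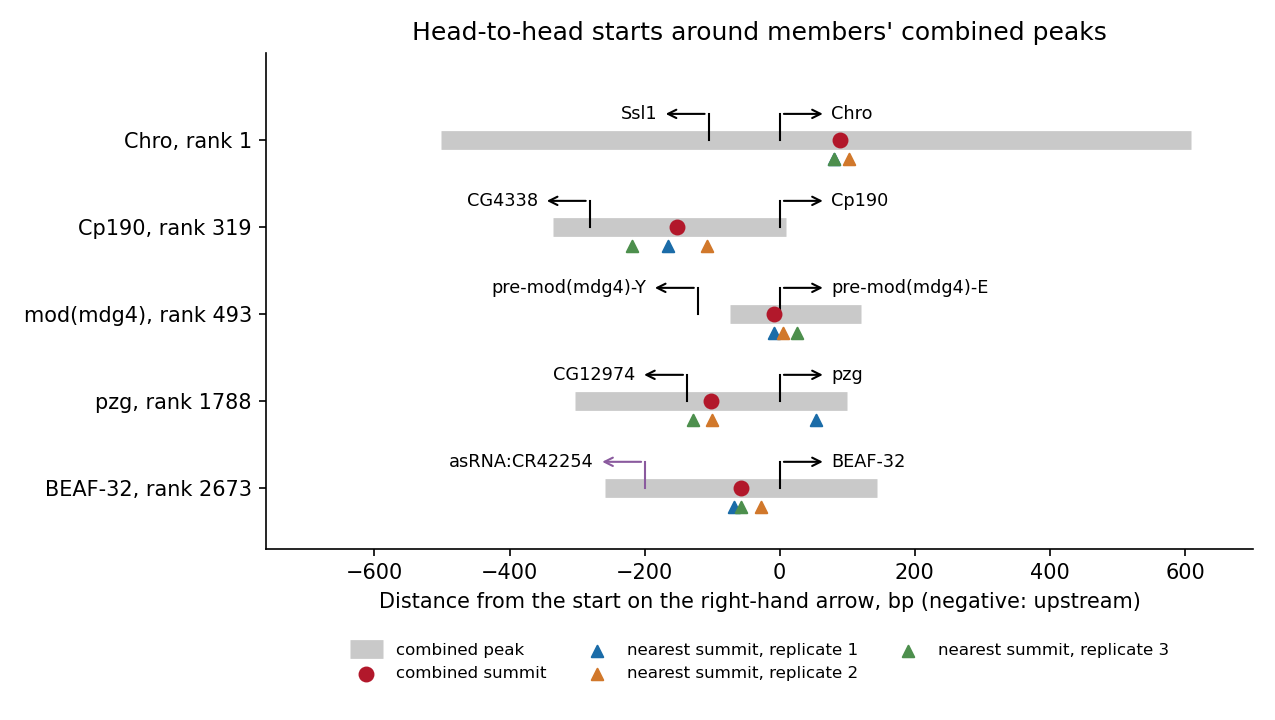
Position of 5 combined peaks (grey bars), their summits (red) and the nearest summits of replicates 1, 2 and 3 (triangles) in bp from the start drawn on the right, with arrows for the direction of both starts and purple for a noncoding one. The Chro summit lies at 89 bp, with its replicate summits at 81, 102 and 80 bp, while the Cp190 and pzg summits lie upstream of the start at -152 and -101.

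Base composition at the summits was compared with the 2980 combined peaks that belong to none of the 10 genes. The 101 bp around a summit held 66.3% A+T at Chro, 78.2% at Cp190, 63.4% and 76.2% at the mod(mdg4) peaks, 71.3% and 74.3% at the JIL-1 peaks, 39.6% at pzg and 65.3% at BEAF-32. The other combined summits averaged 63.8% A+T, with 56.9% in flanks 500 bp away and 57.9% in windows of the same length ending at protein-coding TSSs. Cp190 and pzg were the extremes. At Cp190 the window was richer in A+T than 95.5% of the other summits, whereas only 0.839% of them held less A+T than pzg, as the G- and C-rich pzg spacer printed above shows.

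**Figure D5:**
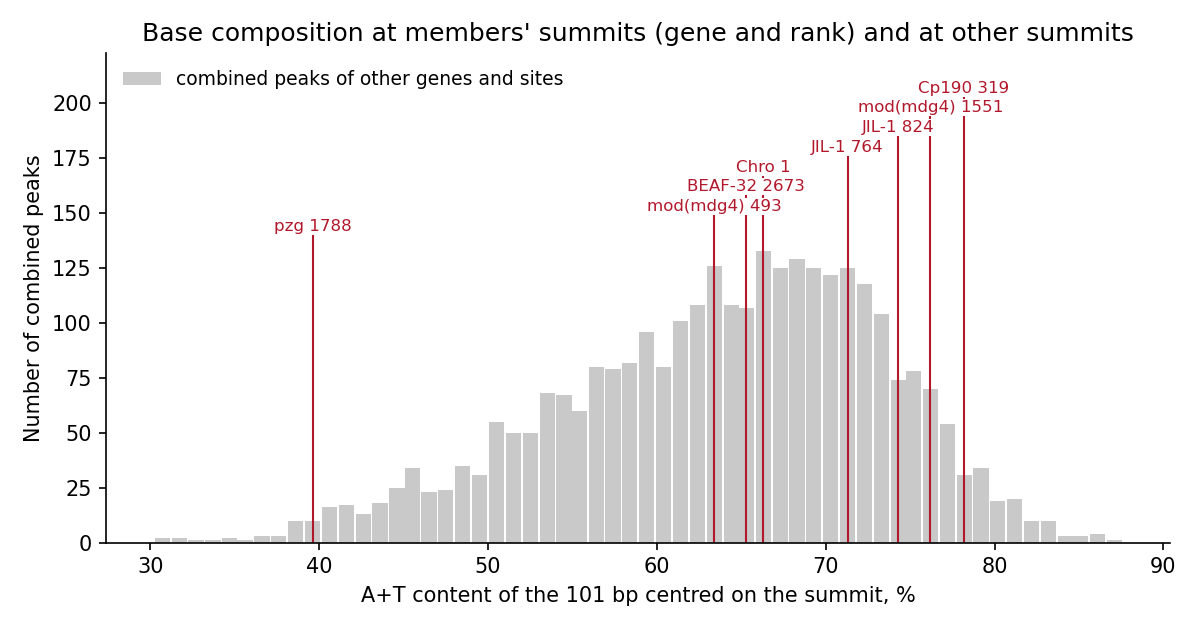
A+T content, in %, of the 101 bp centred on the summit, with grey bars for the number of other combined peaks at each value and red lines for the 8 peaks of the genes, labelled by gene and rank (line height has no meaning). The pzg line at 39.6% stands in the lower tail and the Cp190 line at 78.2% in the upper part of the distribution.

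Known words of promoters and insulators were searched on both strands in the 101 bp around each summit. CGATA, the core word that BEAF-32 recognises, was found in 1 of the 8 windows, that of Chro, where it is printed in capitals as its reverse complement at the summit. The word was found at 13.3% of the other combined summits, in 11.8% of the flanks and in 25.9% of windows of that length before protein-coding TSSs, so a single match among 8 is near those shares. TCAGT, the initiator word, was found at BEAF-32 and at the mod(mdg4) peak of rank 493, against 17.7% of other summits, 15.6% of flanks and 20.9% of promoters. TATAAA, the TATA box, was found at the JIL-1 peak of rank 764, where it overlaps its own reverse complement, against 19.9%, 11.1% and 18.2%. Capitals elsewhere in the printed spacers, such as CGATA and TCAGT near the Cp190 start and TCAGT between Chro and Ssl1, lie outside these windows and were not counted.

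No window held the DRE word TATCGATA (1.24% of other summits, 5.20% of promoters), the motif 1 core GGTCACAC (0.638% and 2.63%), the CTCF core AGGTGGCG (0.503% and 0.254%), or TGCATA, part of the su(Hw) site (7.55% and 4.52%). GAGAG, bound by GAGA factor, CACGTG, an E-box, and CAGGTAG, bound by Zelda, were likewise not found, with shares of 9.66%, 1.07% and 0.638% at other summits and of 15.4%, 1.05% and 0.664% in promoters. The 8 windows were not drawn at random, and 2 of the genes gave 2 windows each, so they set no limit on an underlying share. With shares this low at the other summits, 0 of 8 windows does not tell these genes apart from them for any of these words.

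The words that led at the other combined summits were then looked up at these genes. ATTTAAAA, the word whose share at the other summits (5.07%) lay furthest above that in flanks (2.00%), with 3.76% in promoters, was in 0 of the 8 windows. Of the 10 words that led by this difference, TATTTTAA (4.63% of other summits, 1.80% of flanks, 2.62% of promoters) was at Cp190 and at the mod(mdg4) peak of rank 1551. TATTTAAA (4.09%, 1.54% and 2.93%) was at Chro, AAATTAAA (5.1%, 2.58% and 2.85%) was at BEAF-32, TAAAATAA (4.5%, 2.06% and 2.29%) was at the JIL-1 peak of rank 764, and the other 6 were in no window. ATACCCTA led by the ratio of summit share (2.08%) to flank share (0.134%), with a small constant added to the flank share. Its share in promoters was 0.280%, and it was in none of the 8 windows. A weight matrix of 16 positions grown from that word matched 8.36% of the other summits, 18.7% of those of rank 1 to 300, 1.78% of flanks and 1.5% of promoters, and it matched none of the 8 windows and nowhere in the 8 peak intervals. The highest peak of the whole list thus carried no match to this matrix, and most other summits of rank 1 to 300 carried none either. The leading words and the matrix were chosen at the other summits, which raises the shares there. The 8 windows had no part in that choice, so the 2 sides are not compared on equal terms.

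A search restricted to the strong peaks gave the same count for Chro. Among the 10 words that led by the same ratio in other peaks of rank 1 to 300, none lay in the 1112 bp Chro interval. At least 1 of them lay in 44.1% of the other intervals of rank 1 to 300. The same held for 34 of 42 other intervals of at least 800 bp. Of the 8 intervals at these genes, 1 held such a word, GTTTTAAA at BEAF-32, against 22.6% of all other intervals. Wide intervals have more room for a match, so the share among wide intervals is the nearer comparison for Chro. Only exact matches were counted, and these words were chosen after the data were seen. They were picked in the other peaks of rank 1 to 300, so the share in those peaks is raised by the choice. The share among wide intervals may be raised as well, whereas the Chro interval had no part in the choice. The absence at Chro is therefore a description and was not tested.

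Genes with the scores most like those of Chro and Cp190 were looked up among 1034 other protein-coding genes whose combined peak within 500 bp of a TSS was listed in all 3 replicates. The measure was the Euclidean distance of log2 relative scores over the 3 replicates. For Chro the nearest were MFS18 at a distance of 2.08, CG5098 and CG5757 at 2.10, which share 1 peak, Pgm1 at 2.17 and PNPase at 2.20. MFS18 had relative scores of 56.0, 31.5 and 38.5 in replicates 1, 2 and 3, against 106, 76.9 and 97.9 for Chro given above, as the first rank of Chro in every list required. For Cp190 the nearest were Dic1 and Elp6, which share a peak of rank 278, at a distance of 0.111, followed by nrv1 at 0.182, l(2)k01209 at 0.185 and CG31612 at 0.215.

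Other genes of the same kinds were counted from 2 wider lists. Of 22 further architectural protein genes, 21 matched the annotation, and 3 of these (14.3%) had a combined summit within 500 bp of a TSS, while 5 (23.8%) had a combined peak by the membership rule, against 11.1% and 19.5% of protein-coding genes. The 3 were Trl, row and Cap-H2. Trl, the gene of GAGA factor, had 6 combined peaks by the rule, and the one nearest its start ranked 623, 174 bp downstream of a TSS, at relative scores of 0.978 and 2.23 in replicates 1 and 2 and with no entry in replicate 3. The row peak ranked 1725 at -48, at 0.675, 0.934 and 0.806 in replicates 1, 2 and 3 (mean 0.805 ± 0.129, SD, n = 3). That at Cap-H2, a condensin II subunit gene, ranked 2239 at -145, shared its peak with MED7 and had 0.705 and 0.623 in replicates 1 and 2. The other 2 with a peak by the rule, named after their values were seen, were fs(1)h, a BET bromodomain gene (rank 1103, at -805), and Map60, which encodes a partner of the Cp190 protein (rank 711, at -1913 and within 500 bp of the CG1827 start). The cohesin and cohesin loader genes vtd, SMC1, SMC3 and Nipped-B, and the insulator genes ZIPIC, Ibf1, Ibf2, Elba1, Elba2 and Elba3, had no combined peak. Nor did the other matched genes, insv, Clamp, M1BP, l(3)mbt, woc and HP1c. Most protein-coding genes had none by this rule.

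Of 19 partner genes of interbands, JIL-1 and Z4, 17 matched, and 3 (17.6%) had a combined summit within 500 bp of a TSS, while 5 (29.4%) had a peak by the membership rule, against the same 11.1% and 19.5%. The 3 were Dref, Lam and east. Dref, which encodes the factor that binds the DRE word and works with Z4, had a peak of rank 673 at -75, shared with the ribosomal protein gene RpL13, at 1.80 and 1.19 in replicates 1 and 2 and with no entry in replicate 3. Lam, the B-type lamin gene, had a peak of rank 829, 229 bp downstream of a TSS, at 1.48, 1.17 and 1.02 in replicates 1, 2 and 3 (mean 1.22 ± 0.237, SD, n = 3). Of 3 combined peaks at east by the rule, 2 lay within 500 bp of a TSS, and the stronger of these ranked 2366 at -124, with 0.748 and 0.477 in replicates 1 and 2. The other 2, likewise named after their values were seen, were Trf2 (rank 2909, 2341 bp downstream of a TSS) and the gene of HP1a, the heterochromatin protein, whose peak of rank 198 lay at -1888, within 500 bp of the CG8360 and CG8372 starts. None of the dosage compensation genes msl-1, msl-2, msl-3, mof and mle, and none of the remodeller genes E(bx), Iswi, Nurf-38 and Caf1-55, had a combined peak. These shares were not tested. The highest-ranked peak within 500 bp of a TSS in the 2 lists was that of Trl, at rank 623. No peak could outrank that of Chro, which was chosen for its first rank.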

How the data were processed

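Peak lists for dm6 were deposited in narrowPeak format, per the labels and the descriptions beside the lists: 1 per replicate, 1 pooled and 1 combined. The score per peak (column 7), deposited by the authors, has no fixed range and was not scaled between lists. The aligner, peak caller and cutoffs are not given in the labels or descriptions, and the control experiment was not used here. Replicates carry separate biosample records in the labels. The genome was release 6 and the annotation BDGP 6.54 (Ensembl release 115). Combined summits (column 2 plus column 10) were assigned to genes by the stated rule, and an overlap of at least 1 bp linked replicate entries to combined peaks. Means and SDs were computed for peaks listed in all 3 replicates. Promoter windows for words were 101 bp ending at the TSS, the summit window length. Words of 8 bases were counted on both strands against flanks at 500 bp. Leading words came from the 2980 peaks of no member, and the matrix threshold was the 98th percentile of 1 flank. The peak assignment was tested on a made-up gene, and the word ranking and weight matrix on simulated sequences. The likeness search was not tested in this way. Named are the 10 genes, genes sharing their peaks, genes of the wider lists with a promoter peak, the 5 genes most like Chro and Cp190, and CG10274; genes named for having no peak come from the same lists. The members and lists were chosen with earlier results of these data known. The ratio-ranked words, the matrix, the words of the strongest peaks and the nearest-summit scores of genes other than Chro were added after the data were seen. Python 3.11.15, numpy 2.4.6 and matplotlib 3.10.9 were used. Coordinates are 1-based.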

Additional observations from a re-analysis of the deposited data

How the results depend on the processing

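The count of genes with a combined peak was 6, against 19.5% of protein-coding genes. It was 4 (against 11.1%) for a window of 500 bp without the gene body and 4 (11.4%) for the higher-scoring 1494 peaks. With the gene body, it was 6 (16.7%) for a window of 1000 bp and 8 (29.9%) for a window of 5000 bp, which adds CTCF and pita. It was 6 under the other definitions of a gene's peak, for which no share of protein-coding genes is given here. When 1 replicate was left out and support by the remaining pair was required, it ranged from 4 to 6, against 10.8% to 14% of protein-coding genes. The count supported by all 3 replicates was 4, against 10.3% of protein-coding genes, and from 4 to 6 with 1 replicate left out. Without replicate 1 it was 6, since pzg and BEAF-32 were missing from that replicate's top list. The relative score of Chro was 335.6 ± 68.7 when scaled by the median of all 30000 entries, background included, which is lower than the median over shared peaks, and ranged from 87.4 to 102 with 1 replicate left out. Scaling by the median of a replicate's own top 2988 peaks raised Cp190 to 2.85, mod(mdg4) to 2.12, JIL-1 to 1.74 and BEAF-32 to 0.694. It kept the order of the 6 genes. Ranges of mean ± SD then overlapped between Cp190 (2.85 ± 0.406) and mod(mdg4) (2.12 ± 0.395). Those of JIL-1 (1.74 ± 0.280) and pzg (1.04 ± 0.462) overlapped as well. Taking the replicate entry with the nearest summit moved BEAF-32 to 0.568. The leading word of other summits was in 1 of the 8 windows at ± 100 bp, and a leading word of 6 bases, AAATAT, was in 3, against 29.5% of other summits and 16% of flanks. The cause of these differences was not tested. No paired analysis was possible because the samples form 1 group and no test was made. Read depth is unknown, so an absent entry cannot be told apart from a shallow library, and a score combines signal with the caller's unstated model.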
